A study of Mus musculus with 40 samples.

Results

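Potassium channel subunit genes were taken as all genes whose symbol in the platform's probe table starts with Kcn, which gave 80 of the 16593 genes with a symbol there (119 of 25697 probes). Of these, 54 genes (66 probes) passed the detection level on 3 or more of the 40 arrays, and they are called measured below. The detection level was a normalized log2 signal of 6.85. The other 26 genes did not reach it on 3 arrays and have no values here.

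Adult male C57BL/6J mice of 9 to 10 weeks gave total RNA of dorsal root ganglia, the clusters of sensory neuron cell bodies beside the spinal cord, which was read on Illumina bead arrays. In spared nerve injury (SNI) the sciatic nerve loses 2 of its branches, the common peroneal and the tibial, which are ligated and transected, and its sural branch is spared, so a ganglion holds injured and uninjured neurons side by side. Naive mice without surgery gave 7 arrays, and no group with sham surgery was analysed here. Injured mice gave 3 arrays each at 8 h, 16 h, 1, 2, 3, 5, 6, 7 and 8 days and 2 arrays each at 4, 9 and 10 days.

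Potassium channels let potassium ions leave the cell, which holds the resting potential down and ends each action potential. Voltage-gated channels are built of 4 pore subunits, often joined by accessory subunits, and silent subunits change the properties of other voltage-gated channels without forming a channel alone. Tandem-pore (K2P) channels carry the leak current at rest, inward rectifiers stabilise the resting potential, and calcium- and sodium-activated channels follow the activity of the cell. In sensory ganglia these channels restrain firing, and a smaller potassium current after nerve injury is a known feature of the tissue.

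The times were read singly and in 3 phases, an early phase of 8 h to 1 day (9 arrays), a middle phase of 2 to 5 days (11 arrays) and a late phase of 6 to 10 days (13 arrays). Each phase is the mean of its group means. Differences are on the log2 scale of background-corrected, quantile-normalized signals, ± the standard error (SE) of the fit. Adjusted p is from limma, with Benjamini-Hochberg adjustment over all 10519 genes tested, and a gene is called where it is under 0.05. Signals of different probes are not set against each other. Whether an array holds 1 mouse or a pool is not in the labels, so the p-values measure the spread between these samples, which can be partly technical, and the number of arrays limits the precision.

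Median intensities of the arrays ran from 130.2 to 244.5. The injury-induced transcription factor Atf3 separated the labels, at 6.89 to 7.54 on the naive arrays and 8.45 to 11.58 on the 33 injured arrays. The mean level of 9 measured pan-neuronal markers was 11.97 to 12.11 on naive, 11.83 to 12.24 on middle and 11.89 to 12.32 on late arrays, and 1 of the 9, Isl1, was called lower, in the late phase. Macrophage markers were called higher in 8 of 9 measured genes in the middle phase and 9 of 9 late, with a list level of 8.12 to 8.35 on naive and 8.99 to 9.34 on late arrays. Skeletal muscle marker levels ranged from 6.99 to 11.53 and passed 9 on 5 arrays, which are naive 6, 8 h replicate 2, 3 days replicate 2, 8 days replicate 1 and 9 days replicate 1. Calls of members in the phases and between them that change without these 5 arrays are given both ways. Values at single times and of partner genes were not followed without them.

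Potassium channel genes were called at times from 2 days on, and most of those called were lower than naive. No member was called at 8 h, 16 h or 1 day, where 0.105%, 0.713% and 1.65% of all genes were called, nor in the early phase as a whole (1.12% of all genes). In the middle phase 13 of 54 members were called (24.1%, against 10.9% of all genes), 11 of them lower and 2 higher. In the late phase 16 of 54 were called (29.6%, against 10.9%), 14 lower and 2 higher. Among those called lower are Kcnh7 (both phases) and Kcnh5 (late), dim genes that passed the detection filter mostly on naive and early arrays. Of all genes 5.21% were called lower and 5.72% higher in the middle phase, and 5.11% lower and 5.76% higher late. These shares belong beside the counts by class, partner list and marker list too. The median member stood at -0.04 in the early, -0.10 in the middle and -0.15 in the late phase, beside -0.01, -0.01 and -0.02 for all genes. At 1 day, where no member was called, it stood at -0.10, with 68.5% of the members below 0 (52.2% of all genes). Below 0 lay 79.6% of the members late, beside 55.1% of all genes. In bulk tissue, fewer cells of a type and less RNA per cell cannot be told apart.

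The moderated F-test over the 12 times called 9 members (16.7%, against 7.52% of all genes). They are the leak channel genes Kcnk1, Kcnk6 and Kcnk18, the pore genes Kcna2 and Kcnc1, the silent subunit genes Kcng4 and Kcns1, and the accessory genes Kcnip3 and Kcnmb4. By single time, 49 calls were made in all, 41 lower and 8 higher. Lower calls numbered 5 at 2 days (1.45% of all genes lower), 3 at 3 days (2.15%), 2 at 4 days (0.513%) and 9 at 5 days (3.00%). They went on with 5 at 6 days (2.41%), 8 at 7 days (2.10%), 3 at 8 days (1.58%), 2 at 9 days (0.390%) and 4 at 10 days (0.618%). The groups at 4, 9 and 10 days have 2 arrays each, so their counts rest on wider errors. Higher calls numbered 1 at each time from 2 to 10 days apart from 9 days, which had 0, and each was Kcnk6 or Kcnmb4. Of all genes 2.41%, 3.67%, 1.94% and 3.93% were called higher at 2, 3, 4 and 5 days. At 6, 7, 8, 9 and 10 days the shares were 2.79%, 3.95%, 2.60%, 1.64% and 2.19%.

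**Figure D1:**
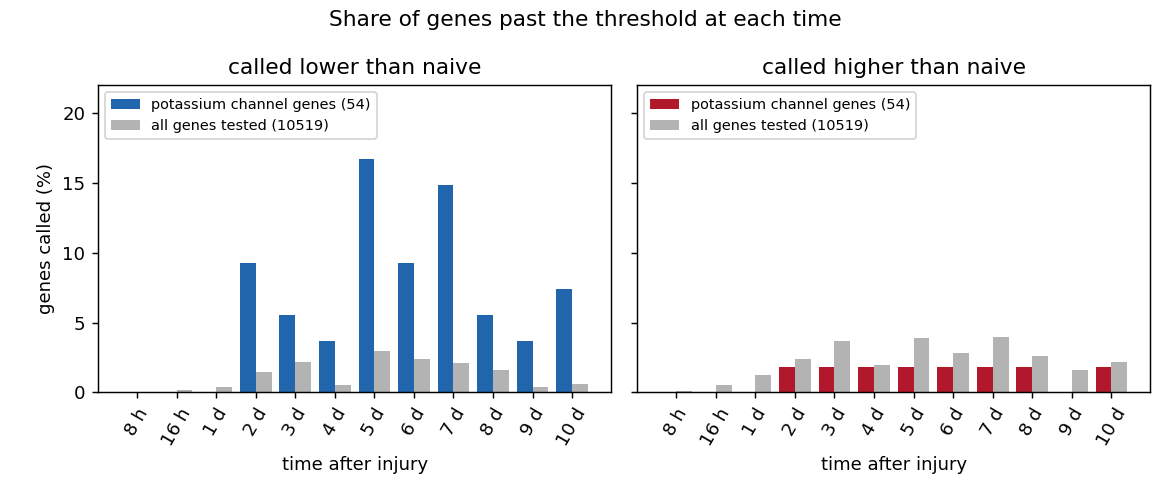
Share of genes called lower (left) or higher (right) than naive at each time, in percent, for the 54 measured potassium channel genes (coloured bars) and all 10519 genes tested (grey bars). The lower share of the members was above that of all genes at each time from 2 to 10 days, and it was 0 through 1 day.

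**Figure D2:**
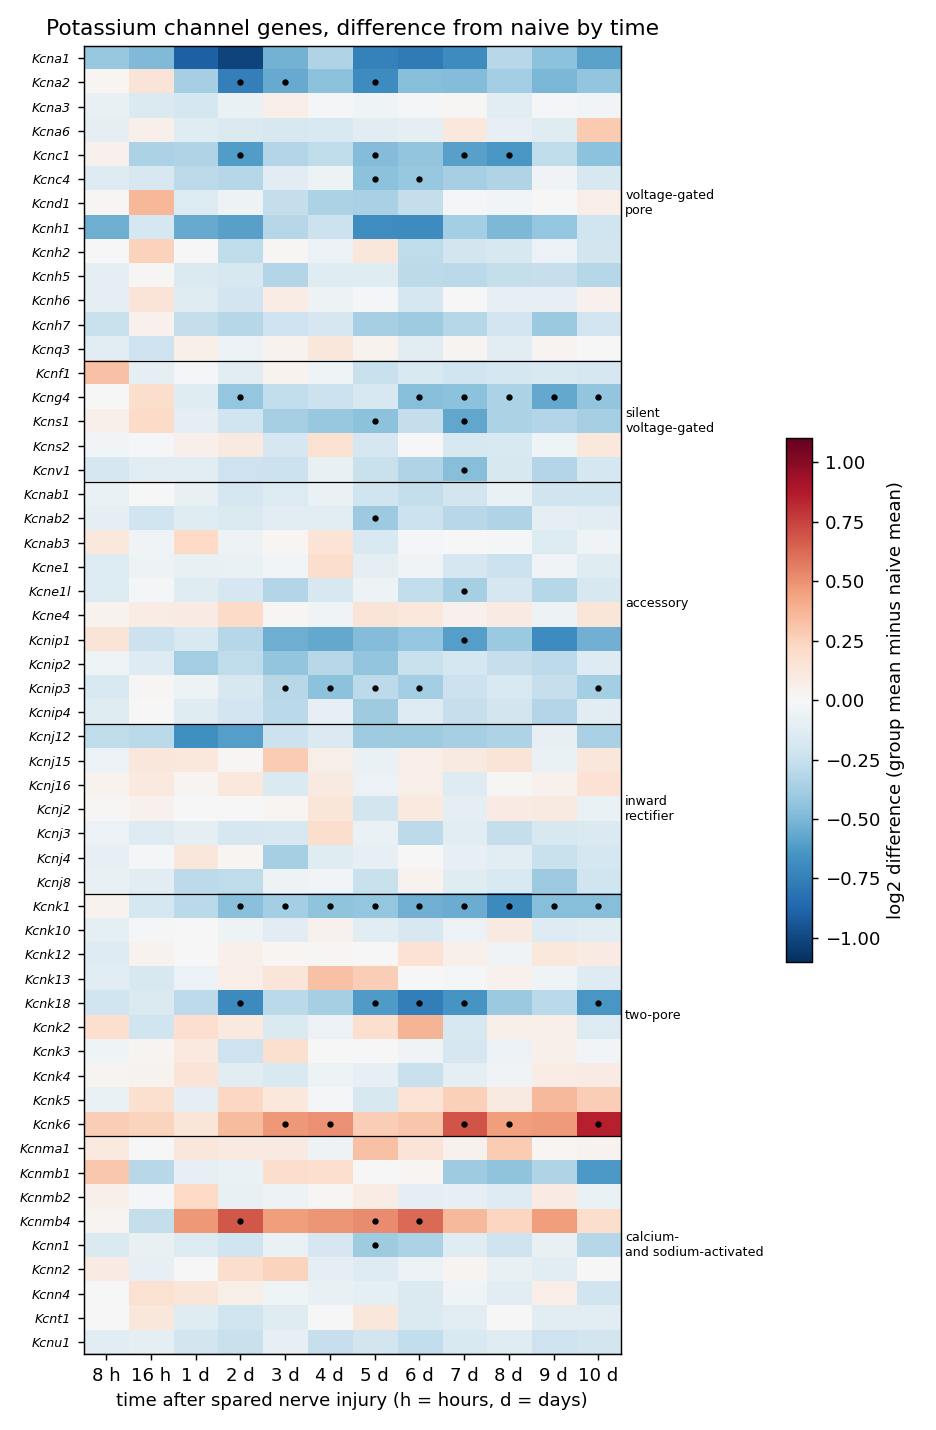
Log2 difference of each time from naive for the 54 measured potassium channel genes, grouped by class. Blue is lower and red is higher than naive, and a dot marks an adjusted p under 0.05. Kcnk1 carries a dot at each of the 9 times from 2 to 10 days.

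Among the voltage-gated pore genes 13 of 23 were measured, with 3 called lower in the middle phase (5.21% of all genes were) and 5 late (5.11%). These counts include Kcnh7 (both phases) and Kcnh5 (late), whose falls the detection filter favours, as given below. Kcna2 encodes Kv1.2, a subunit of the low-threshold Kv1 channels that flank the nodes of Ranvier in large sensory axons. Its signal lay between 9.78 and 10.59 on the naive arrays, with a median of 10.03. It was 9.54 to 10.39 early (median 10.09), 9.19 to 9.69 in the middle phase (median 9.49) and 9.34 to 9.99 late (median 9.64). All 11 middle arrays lay below all 7 naive arrays, which held for 0.599% of all genes, whereas late and naive arrays overlapped. Kcna2 fell by 0.61 ± 0.11 in the middle phase (1.53-fold, adjusted p = 0.00015) and by 0.45 ± 0.11 late (adjusted p = 0.00362). The arrays were 9.95, 9.54 and 9.65 at 1 day and 9.49, 9.19 and 9.30 at 2 days. So 2 of the 3 arrays at 1 day, and all 3 at 2 days, lay below the lowest naive array. The difference from naive was -0.37 at 1 day (adjusted p = 0.321, not called) and -0.75 at 2 days (adjusted p = 0.0022).

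Kcna1 encodes Kv1.1, the usual partner of Kv1.2, and its signal had the largest spread within groups of any measured member (SD 0.50). The naive arrays lay at 10.32 to 11.68 (median 11.26), the early ones at 9.80 to 11.27 (median 10.70), the middle ones at 9.76 to 11.03 (median 10.66) and the late ones at 9.72 to 11.29 (median 10.72). Groups overlapped throughout. Its differences were -0.60 ± 0.23 early (adjusted p = 0.284), -0.66 ± 0.23 in the middle phase (0.0569) and -0.56 ± 0.22 late (0.105), none of them called. The 95% interval of the middle difference ran from -1.12 to -0.20, so sizes on both sides of that of Kcna2 remain possible. Naive 5 was the lowest naive array, at 10.32, and without it the middle difference had an adjusted p of 0.0194 and the late one 0.0359. Leaving out 7 other arrays one at a time also brought the middle p under 0.05, the lowest being 0.0374 without 2 days replicate 2, and leaving out 10 days replicate 1 brought the late p to 0.0442. The middle difference was also called under 5 of 14 other settings. The adjusted p was 0.00642 with the pan-neuronal marker level as a covariate, 0.0165 with the compared groups alone, 0.0444 with robust variances, 0.0453 with the muscle marker level as a covariate and 0.0456 with another background correction (neqc). The late difference was called with the pan-neuronal covariate (0.0497). Kcna6 stood at 0.02 late (95% interval -0.21 to 0.24). Kcna3 was near background, above the detection level on 4 of 7 naive and 5 of 13 late arrays, and no difference is given for it.

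Both Kcnc genes, which encode the high-threshold Kv3 channels that shorten action potentials, were called lower. Kcnc1 (Kv3.1) was 9.67 to 10.19 on naive arrays (median 9.84) and 9.16 to 10.05 early (median 9.71). It was 9.02 to 9.91 in the middle phase (median 9.56) and 9.01 to 9.80 late (median 9.40). All 13 late arrays lay below the naive mean, and the ranges still overlapped. Kcnc1 fell by 0.42 ± 0.11 in the middle phase (adjusted p = 0.00692) and by 0.48 ± 0.10 late (adjusted p = 0.00136). Its lowest group mean was at 8 days, at -0.64 from naive (adjusted p = 0.0084).

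Kcnc4 (Kv3.4) was tighter, at 11.90 to 12.13 on naive arrays (median 12.10) and 11.52 to 12.05 late (median 11.76). It fell by 0.26 ± 0.08 late (adjusted p = 0.0255), and the middle difference of -0.24 was not called (adjusted p = 0.0588). The late call was lost without naive 1, 2, 6 or 7, with adjusted p of 0.0542 to 0.0586. It was also lost without the 5 arrays of high muscle marker level (0.0702) and with the mean of its 2 kept probes (0.119), and the dimmer of the 2 gave -0.24 ± 0.14 late.

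Of the ether-a-go-go family (Kcnh) 5 of 7 genes were measured, and 2 were called lower late. Kcnh7 and Kcnh5 are dim, and they passed the detection filter mostly on naive and early arrays, so the filter itself favours falls in them. Kcnh5 was above the detection level on 3 naive, 1 early, 0 middle and 0 late arrays. Kcnh7, an erg channel gene, was above the detection level on 5 of 7 naive and 0 of 13 late arrays, with measured means of 6.88 and 6.57, so its late fall is given as at least 1.02-fold (adjusted p = 0.0184). That call was lost without naive 3 (0.0563), and the middle call (adjusted p = 0.0465) was lost when any 1 of 19 arrays was left out, up to 0.124, and without the 5 arrays of high muscle marker level (0.0647). The middle call was also lost with a background offset of 16 (0.0524) and without the dim-probe filter (0.0653). Kcnh5, an eag channel gene, had a naive mean of 6.71, below the detection level, and a late mean of 6.43, so no fold is given for its late call (adjusted p = 0.0293). Leaving out naive 2, 3, 6 or 7, 9 days replicate 2 or 10 days replicate 2 ended it, with adjusted p of 0.056 to 0.0937, as did leaving out the 5 arrays of high muscle marker level (0.0773).

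Kcnh2, the erg1 gene, was read by 3 kept probes, of which 2 had similar signals and the other was dim. The probe used stood at 9.38 to 9.80 on naive (median 9.48) and 9.13 to 9.67 on late arrays (median 9.29), a difference of -0.19 ± 0.08 (adjusted p = 0.169). The other bright probe gave -0.38 ± 0.15 late (0.141, adjusted over kept probes) and the dim one -0.05 ± 0.07. None was called against naive alone, whereas the mean of the probes was called lower late (-0.21, adjusted p = 0.0234). The A-type channel gene Kcnd1 (Kv4.1) lay at 8.13 to 8.68 on naive and 7.89 to 8.29 on middle arrays and differed by -0.26 in the middle phase (adjusted p = 0.118, 95% interval -0.47 to -0.04) and by -0.05 late. Kcnq3, of the M-current, was dim, and its late difference was -0.04 (95% interval -0.20 to 0.12). Kcna4, Kcnd3 and Kcnq5 were among the 10 pore genes not measured.

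**Figure D3:**
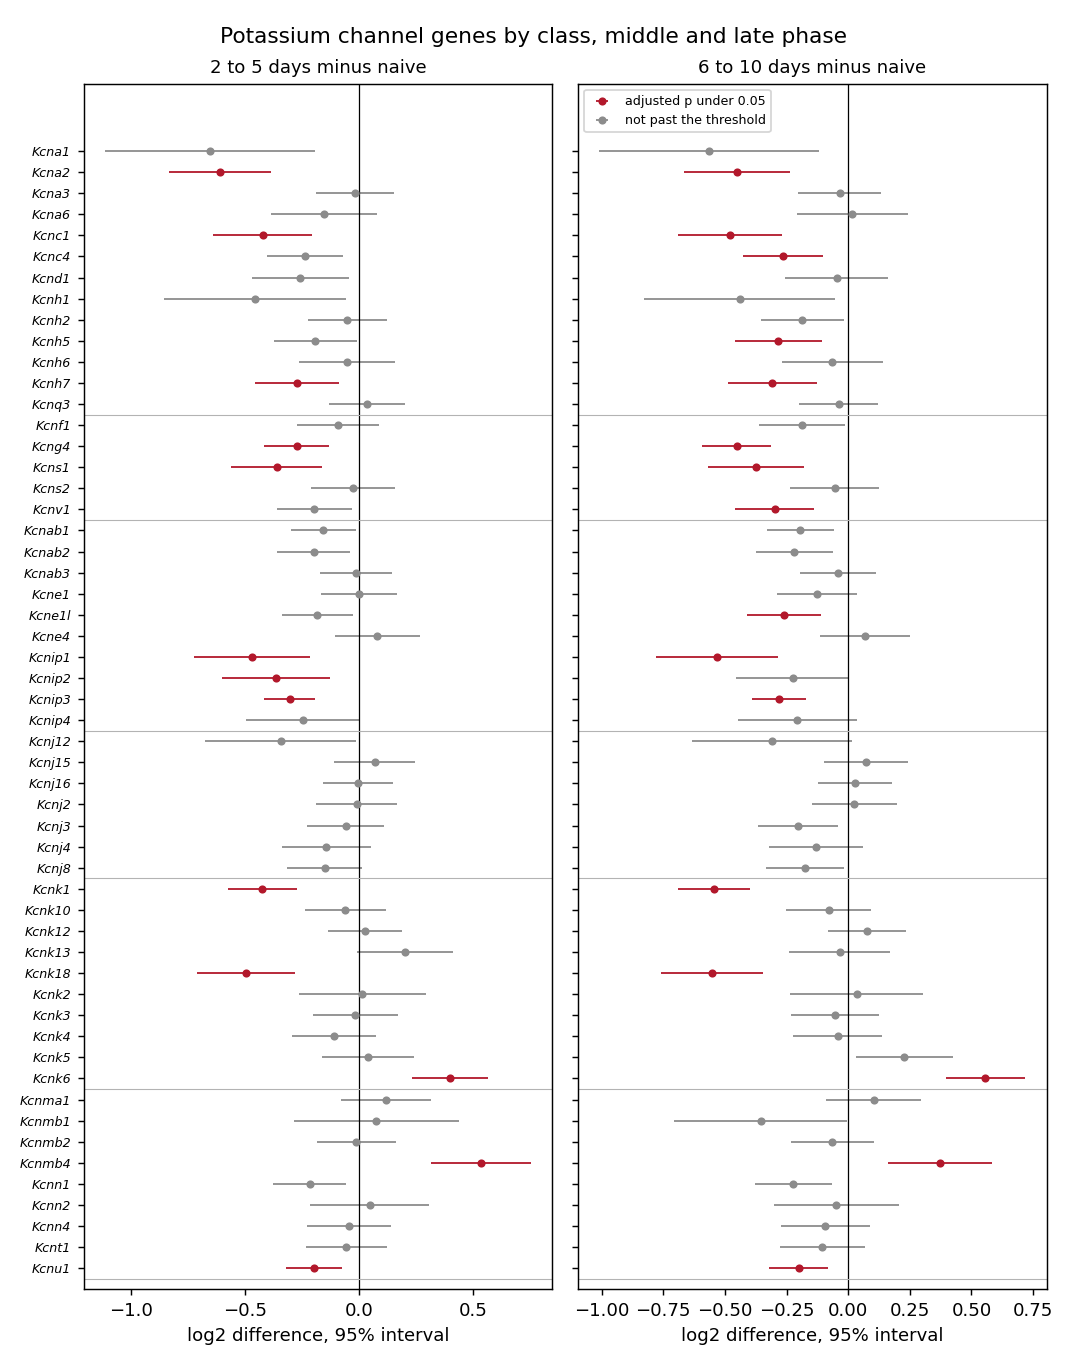
Log2 difference from naive with its 95% interval for the 54 measured potassium channel genes, middle phase (left) and late phase (right), with red for an adjusted p under 0.05. Kcnk6 and Kcnmb4 are the red points on the right of 0 in both panels, and the wide interval of Kcna1 spans the values of most red points on the left.

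The silent subunit genes were called lower in 2 of 5 measured members in the middle phase (5.21% of all genes were) and 3 of 5 late (5.11%). Kcng4 encodes Kv6.4, a modifier of Kv2 channels. Its naive arrays lay at 7.43 to 8.07 (median 7.76), the early ones at 7.54 to 8.04 (median 7.80), the middle ones at 7.29 to 7.70 (median 7.43) and the late ones at 7.12 to 7.52 (median 7.31). Every late array was below every early array, which held for 0.162% of all genes. Kcng4 fell by 0.27 ± 0.07 in the middle phase (adjusted p = 0.00796) and by 0.45 ± 0.07 late (1.37-fold, adjusted p = 9.01e-06). It was called at 6 times, which are 2, 6, 7, 8, 9 and 10 days, and its lowest arrays were the 9-day pair at 7.25 and 7.12.

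Kcns1, which encodes Kv9.1, another modifier of Kv2 channels, was 7.62 to 8.64 on naive arrays (median 8.17) and 8.00 to 8.50 early (median 8.22). It was 7.58 to 8.27 in the middle phase (median 7.80) and 7.36 to 8.05 late (median 7.80). The naive range is wide because naive 2 stood at 7.62 and naive 1 at 8.64. Kcns1 fell by 0.36 ± 0.10 in the middle phase (adjusted p = 0.0131) and by 0.37 ± 0.10 late (adjusted p = 0.00737). The middle call was lost without naive 1 (0.0566) and with the compared groups alone (0.0509), and the late call without the 5 arrays of high muscle marker level (0.0573).

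Kcnv1, which encodes Kv8.1, lay at 8.49 to 8.69 on naive and 7.77 to 8.60 on late arrays, and fell by 0.30 ± 0.08 late (adjusted p = 0.00964). Its middle difference was -0.20 (adjusted p = 0.122). Kcnf1 (Kv5.1) was not called against naive, at -0.19 late (95% interval -0.36 to -0.01). Kcns2 was above the detection level on 1 of 7 naive and 1 of 13 late arrays, so no difference is given.

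Among the accessory genes, the Kcnip genes encode calcium-binding partners of Kv4 channels, and all 4 were measured. Kcnip3, whose product is also known as the transcriptional repressor DREAM, lay at 11.24 to 11.52 on naive arrays (median 11.40). It was 11.18 to 11.53 early (median 11.30), 10.92 to 11.31 in the middle phase (median 11.07) and 10.95 to 11.36 late (median 11.09). All 24 middle and late arrays were below the naive mean, though some lay within the naive range. Kcnip3 fell by 0.30 ± 0.06 in the middle phase (adjusted p = 0.000183) and by 0.28 ± 0.05 late (adjusted p = 0.000323). Its lowest group was 4 days, with arrays at 10.98 and 10.92.

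Kcnip1 was 7.94 to 8.78 on naive arrays (median 8.23) and 7.68 to 8.67 early (median 8.10). It stood at 7.54 to 8.04 in the middle phase (median 7.72) and at 7.25 to 8.11 late (median 7.83). It fell by 0.47 ± 0.12 in the middle phase (adjusted p = 0.0107) and by 0.53 ± 0.12 late (adjusted p = 0.00251), while the F-test did not call it (0.0624). Kcnip2 was 10.11 to 10.91 on naive and 9.65 to 10.44 on middle arrays, and it fell by 0.37 ± 0.12 in the middle phase (adjusted p = 0.0372). That call was lost without naive 1, 3, 6 or 7, 2 days replicate 1, 4 days replicate 1 or 5 days replicate 3 (0.0647 to 0.126), and without the 5 arrays of high muscle marker level (0.103). It was also lost without the dim-probe filter (0.0514) and with the compared groups alone (0.0569). Late, Kcnip2 differed by -0.23 (adjusted p = 0.244). Kcnip4 differed by -0.21 late (95% interval -0.45 to 0.04).

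The 3 Kcnab genes, which encode beta subunits of Kv1 channels, were not called in any phase on the probes used. Kcnab2 lay at 13.80 to 14.18 on naive and 13.36 to 13.87 on late arrays, with a late difference of -0.22 (adjusted p = 0.0637), and it was called at 5 days alone (-0.40, adjusted p = 0.024). Kcnab1 differed by -0.19 late (adjusted p = 0.0601) on the probe used. Its other 2 kept probes were both called lower in the middle phase, over kept probes. The one of nearly the same signal gave -0.18 ± 0.05 (adjusted p = 0.0312) and then -0.27 ± 0.05 late (0.000547). The dimmer one gave -0.41 ± 0.12 (0.0274) and then -0.26 ± 0.12 late (0.212), so the gene's call depends on the probe. Kcnab3 was below the detection level on all late arrays. Among the Kcne genes, Kcne1l was 6.93 to 7.21 on naive and 6.68 to 7.08 on late arrays and fell by 0.26 ± 0.07 late (adjusted p = 0.0176). It was above the detection level on all 7 naive and 6 of 13 late arrays, with a late mean of 6.83, so that size is uncertain. At 7 days none of its 3 arrays reached the detection level, a fall of at least 1.18-fold (adjusted p = 0.039). Kcne1 and Kcne4 were not called.

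Among the measured members, the gene called lower at the most times and the gene called higher at the most times both encode leak channels. Of 13 Kcnk genes 10 were measured, and 2 were called lower and 1 higher in both phases. Kcnk1 encodes TWIK-1, a weakly conducting leak channel. Its signal was 11.19 to 11.71 on naive arrays (median 11.31), 10.99 to 11.61 early (median 11.17), 10.71 to 11.17 in the middle phase (median 10.96) and 10.52 to 10.97 late (median 10.82). All middle and all late arrays lay below all naive arrays, which held for 0.599% and 0.846% of all genes, and all late arrays lay below all early ones (0.162%). Kcnk1 fell by 0.42 ± 0.07 in the middle phase (adjusted p = 9.82e-05) and by 0.54 ± 0.07 late (1.46-fold, adjusted p = 8.56e-07). It was called at all 9 times from 2 to 10 days. The lowest group was 8 days, with arrays at 10.72, 10.52 and 10.76 and a difference of -0.70 ± 0.10 (adjusted p = 1.6e-05).

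Kcnk18 encodes TRESK, a leak channel known from small-diameter sensory neurons. It was 7.88 to 8.61 on naive arrays (median 8.03), 7.56 to 8.25 early (median 7.87), 7.26 to 8.04 in the middle phase (median 7.56) and 7.17 to 7.87 late (median 7.58). The highest late array, at 7.87, lay just below the lowest naive array, at 7.88. Late and naive arrays thus did not overlap, by a narrow gap, which held for 0.846% of all genes. Kcnk18 fell by 0.50 ± 0.10 in the middle phase (adjusted p = 0.00113) and by 0.55 ± 0.10 late (1.46-fold, adjusted p = 0.000201). It was called at 2, 5, 6, 7 and 10 days. The nociceptor marker list, with 7 of 10 genes measured, had a level of 11.24 to 11.56 on naive, 11.04 to 11.32 on middle and 11.13 to 11.50 on late arrays. Its Scn11a and Tac1 were called lower in the middle phase and Scn11a late. Their part in the Kcnk18 result was not tested.

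Kcnk6 encodes TWIK-2, a relative of TWIK-1. Its signal was 6.78 to 7.25 on naive arrays (median 7.09), 7.11 to 7.49 early (median 7.24), 7.22 to 7.69 in the middle phase (median 7.49) and 7.21 to 8.05 late (median 7.67). None of the 33 injured arrays lay below the naive mean. Kcnk6 rose by 0.40 ± 0.08 in the middle phase (adjusted p = 0.000804) and by 0.56 ± 0.08 late (1.47-fold, adjusted p = 3.41e-06). The highest arrays were those of 7 days, at 7.79, 7.75 and 7.67, and of 10 days, at 8.05 and 7.76, where the difference was 0.85 ± 0.13 (adjusted p = 6.8e-05). Macrophage markers, given above, were called higher in the same phases. So were 2 of 7 fibroblast markers in the middle phase and 3 of 7 late. The fibroblast list level was 9.31 to 9.68 on naive and 9.71 to 10.29 on late arrays. Within groups, Kcnk6 correlated at 0.15 with the macrophage level over the 40 arrays. The values were 0.57 with the skeletal muscle level and -0.61 with the pan-neuronal level. The part of these cell types in the rise was not tested.

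The sizes of dim members depend on the background correction. The alternative neqc takes each array's background from the deposited detection p-values, which for 37 of 40 arrays do not follow the intensities of the array, so its values rest on mismatched columns. With it, Kcnk6 gave 0.21 late and kept its call (adjusted p = 2.82e-06), Kcng4 gave -0.19 (9.17e-06) and Kcnk18 gave -0.27 (0.000217). Kcnip1, Kcns1, Kcnv1 and Kcne1l gave -0.28, -0.20, -0.19 and -0.07 late and kept their calls too. Kcnk1, Kcna2, Kcnc1, Kcnip3 and Kcnmb4, which are brighter, kept late values within 1.5 times of those above.

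Other leak channel genes were not called. Kcnk2, which encodes the stretch- and temperature-sensitive channel TREK-1, lay at 7.72 to 8.45 on naive and 7.62 to 8.57 on late arrays, and its late difference was 0.03 (95% interval -0.24 to 0.31). Kcnk5 differed by 0.23 late (95% interval 0.03 to 0.42, adjusted p = 0.145). Kcnk3, Kcnk4, Kcnk10, Kcnk12 and Kcnk13 stood between -0.08 and 0.08 late. The tandem-pore genes as a class had a median of -0.04 late.

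Inward rectifier genes showed no call. Of 12 Kcnj genes 7 were measured, with a class median of -0.06 in the middle phase and -0.13 late. Kcnj8, which encodes the Kir6.1 subunit of ATP-sensitive channels, had the lowest F-test adjusted p of the class (0.355). It lay at 6.84 to 7.30 on naive and 6.65 to 7.46 on late arrays, and its late difference was -0.18 (95% interval -0.33 to -0.02). Kcnj12 had the lowest late difference of the class, at -0.31 (adjusted p = 0.26, 95% interval -0.63 to 0.01). The called late falls of other members, from 0.20 to 0.55, lie partly within these intervals.

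Calcium- and sodium-activated genes were measured in 9 of 10 members, with 1 called higher (Kcnmb4) and 1 lower (Kcnu1) in each phase. Kcnu1 is grouped here as a relative of the BK channel gene, not for activation by calcium or sodium. No other member of the class was called lower in a phase. Kcnmb4 encodes the beta4 subunit of the BK channel, which slows its gating in neurons. It was 9.37 to 9.95 on naive arrays (median 9.51) and 9.27 to 10.42 early (median 9.78). It was 9.94 to 10.33 in the middle phase (median 10.18) and 9.50 to 10.34 late (median 10.13). No middle array was below the naive mean, and 2 of 13 late arrays were. Kcnmb4 rose by 0.54 ± 0.11 in the middle phase (1.45-fold, adjusted p = 0.000604) and by 0.37 ± 0.10 late (adjusted p = 0.0156, or 0.0507 without naive 7). Its other 2 kept probes gave 0.36 and 0.41 in the middle phase and 0.37 and 0.43 late, all called over kept probes.

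Kcnmb4 and Kcnk6 were called at different times, and that difference was not tested. For Kcnmb4 the arrays were 9.44, 9.39 and 9.27 at 16 h, then 9.78, 10.42 and 10.12 at 1 day, and 10.28, 10.33 and 10.32 at 2 days. It was called at 2, 5 and 6 days and at no time after, with 9.50, 9.91 and 10.18 at 8 days, whereas Kcnk6 was called at 3, 4, 7, 8 and 10 days. The late minus middle comparison called neither.

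The pore gene of the BK channel, Kcnma1, was not called. It lay at 8.35 to 8.93 on naive arrays (median 8.74) and 8.50 to 9.09 late (median 8.78), a difference of 0.10 (95% interval -0.09 to 0.30). Kcnu1, a BK relative known from sperm, was 8.89 to 9.17 on naive, 8.73 to 9.11 on middle and 8.70 to 9.11 on late arrays. It fell by 0.20 ± 0.06 in both phases (adjusted p = 0.0284 and 0.0211). The middle call was lost without naive 1, 5 or 7, 4 days replicate 1 or 5 days replicate 3 (0.0513 to 0.0863), and the late call without naive 7 (0.0645). The middle call was also lost without the dim-probe filter (0.0585) and with the compared groups alone (0.0814). Kcnn1 (SK1) was called at 5 days alone (-0.39, adjusted p = 0.026), with a late difference of -0.22 (adjusted p = 0.0565). Kcnn4, of the intermediate-conductance channel, and Kcnt1, of a sodium-activated channel, differed by -0.09 and -0.10 late, with 95% intervals from -0.27 to 0.09 and from -0.28 to 0.07.

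**Figure D4:**
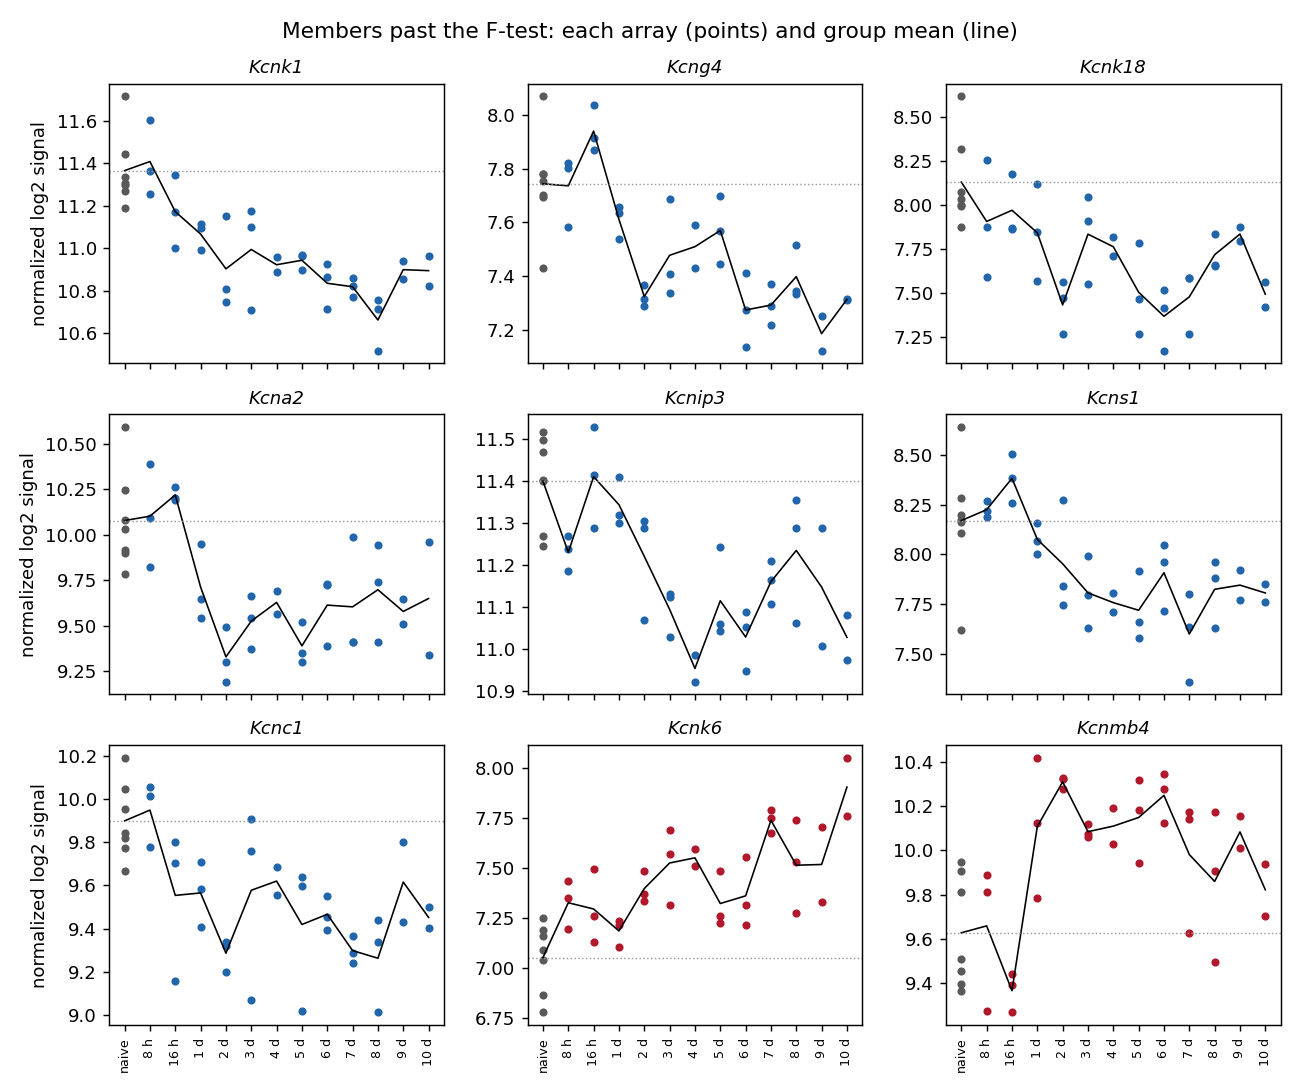
Normalized log2 signal of the 9 potassium channel genes called by the F-test, with each array as a point, the group means joined by a line and the naive mean dotted. The naive arrays are grey, and the vertical scale differs between panels. Kcnk1 lies below its naive range on all arrays from 2 to 10 days, and Kcnk6 lies at or above its naive mean on all injured arrays.

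The difference between the late and early phases compares their means, and the early mean includes the arrays at 1 day. A call therefore does not place the change after the first day, and late against 1 day alone was not tested. For Kcna2, some arrays at 1 day already lay below the naive range. In the late minus early comparison 10 of 54 members were called (18.5%, against 7.08% of all genes). Of these, 9 were lower (2.68% of all genes) and 1 higher (4.40%) late than early. Kcng4 differed most clearly (-0.47 ± 0.06, adjusted p = 1.61e-06), followed by Kcnk1 (-0.39 ± 0.07, 7.16e-05), Kcns1 (-0.43 ± 0.09, 0.000981) and Kcnk6 (0.34 ± 0.07, 0.00191). Kcnip3 gave -0.21 ± 0.05 (0.00521), Kcnip1 gave -0.45 ± 0.11 (0.00854) and Kcna2 gave -0.38 ± 0.10 (0.0103). Kcnmb4 missed the threshold (0.29 ± 0.10, 0.0673).

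Kcnk18, Kcnh2 and Kcnf1 were called by a narrower margin. Kcnk18 gave -0.33 ± 0.09 (adjusted p = 0.0256), lost without 8 h replicate 2, 16 h replicate 2, 1 day replicate 1 or 10 days replicate 1 (0.0582 to 0.0891). Kcnh2 gave -0.27 ± 0.08 (0.0227), lost without 8 h replicate 3, 16 h replicate 3, 1 day replicate 1 or 9 days replicate 2 (0.0545 to 0.0717), and its second probe gave -0.14 ± 0.14. Kcnf1 gave -0.25 ± 0.08 (0.0473), lost without any 1 of 23 arrays (up to 0.143). Its call was also lost with a background offset of 16 (0.0502), cyclic loess (0.0545) and robust variances (0.0656). It was lost without the dim-probe filter (0.0759) and with the sample-number block (0.058) too. Without the 5 arrays of high muscle marker level 5 members were called, and Kcna2 (0.0666), Kcnip3 (0.0587), Kcnk18 (0.138), Kcnh2 (0.0833) and Kcnf1 were not. Kcna1 gave 0.04 and was not called, and its 95% interval of -0.37 to 0.45 holds the values of several called members. Between the late and middle phases no member was called with limma, where 0.646% of all genes were.

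Across all these comparisons 19 of 54 members were called at least once (35.2%, against 17.4% of all genes), and 35 were not. The 19 include Kcnh7 and Kcnh5, whose falls the detection filter favours. Of the 17 called in the middle or late phase, 12 were called in both. The other 2 of the 19, Kcnf1 and Kcnh2, were called in the late minus early comparison. Members did not vary more than other genes, with a median SD within groups of 0.19 log2 in both sets. Many of them varied together from array to array, and 38.1% of the within-group variance lay on 1 axis. Kcnh1 correlated with that axis at 0.91 and Kcnip1 at -0.86, whereas Kcnk1 stood at 0.12 and Kcns1 at -0.04. Correlations with the pan-neuronal level ran from -0.78 (Kcnh1) to 0.82 (Kcnma1). Counts of members are therefore not counts of separate observations. The counts by class are described without a test between classes.

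Partner proteins of these channels were read in the same fit. Of 12 genes listed as Kv1 partners, which place or tune Kv1 channels beside the nodes of Ranvier, 11 were measured. In the middle phase 2 were called lower (5.21% of all genes were) and in the late phase 5 (5.11%), with a late list median of -0.20 beside -0.02 for all genes, and none was called higher. Lgi3, a secreted ligand of the Adam22 receptor, was 11.09 to 11.62 on naive (median 11.46), 10.91 to 11.51 on early (median 11.31), 10.52 to 11.05 on middle (median 10.75) and 10.38 to 10.81 on late arrays (median 10.67). Middle and late arrays all lay below the naive ones, which held for 0.599% and 0.846% of all genes. It fell by 0.66 ± 0.08 in the middle phase (adjusted p = 2.3e-07) and by 0.76 ± 0.08 late (adjusted p = 5.91e-09).

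Cntnap2, which encodes the adhesion protein Caspr2 that holds Kv1 channels in place, lay at 10.56 to 11.02 on naive and 9.97 to 10.74 on late arrays, and fell by 0.44 ± 0.11 late (adjusted p = 0.0052). Adam22 fell by 0.25 ± 0.07 (0.0189), Lgi2 by 0.47 ± 0.13 (0.0196) and Epb41l3, an anchor of Caspr2 to the cytoskeleton, by 0.20 ± 0.04 (0.001) in the late phase. The scaffold genes Dlg1, Dlg2 and Dlg4 were not called.

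Dpp6 and Dpp10, which encode accessory subunits of Kv4 channels, were the called genes among 9 measured other partners. Of all genes 5.21% were called lower in the middle phase and 5.11% late. Dpp6 fell by 0.29 ± 0.08 in both phases (adjusted p = 0.0165 and 0.0113), from 12.21 to 12.57 on naive to 11.70 to 12.23 on late arrays. Dpp10 fell by 0.24 ± 0.07 in the middle phase (0.024) and by 0.33 ± 0.07 late (0.00105). The hyperpolarization-activated cation channel gene Hcn2 fell by 0.36 ± 0.10 late (0.0191), and Hcn3 differed by less than 0.01. Of 7 measured regulators of channel genes, Isl1 was called lower late (-0.23 ± 0.05, 0.000688). The repressor gene Rest was not measured.

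**Figure D5:**
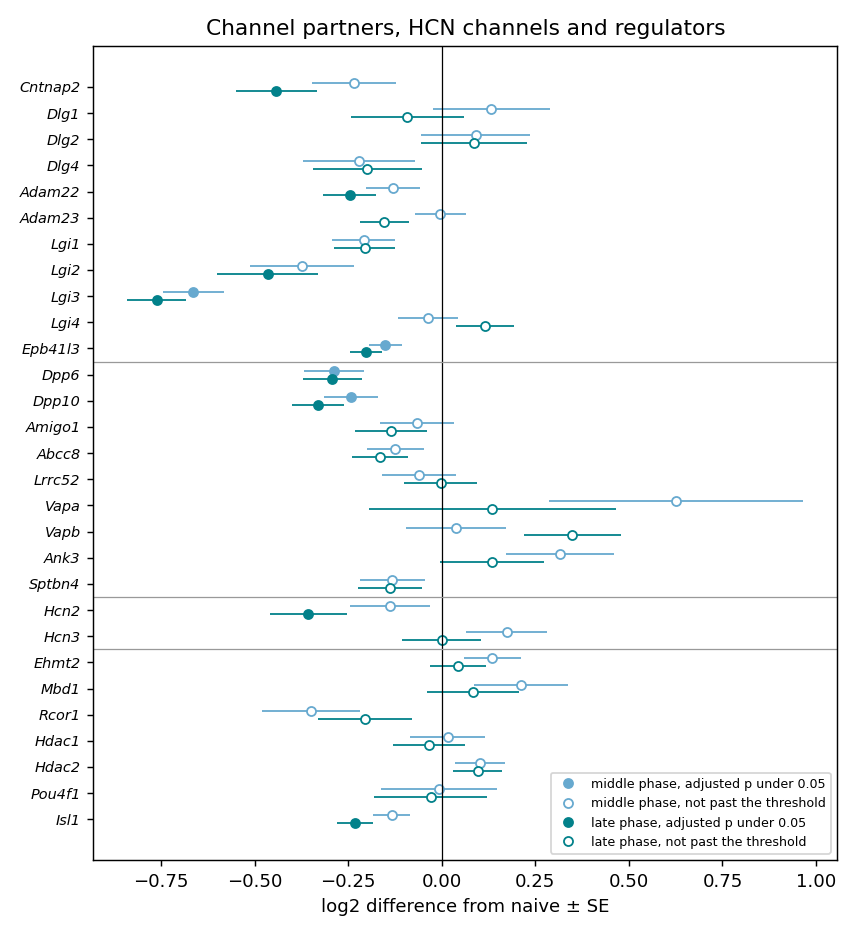
Log2 difference from naive ± SE for the measured channel partner, HCN channel and regulator genes, with middle-phase points in light blue and late-phase points in green, filled where the adjusted p is under 0.05. Lgi3 lies farthest to the left in both phases, and no filled point lies on the right of 0.

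The large-fibre neuron markers, with 5 of 8 measured, had a level of 11.29 to 11.59 on naive, 10.88 to 11.37 on middle and 10.99 to 11.43 on late arrays. Etv1 was called lower in both phases and Nefm in the middle phase. Pvalb, also a large-fibre marker, was counted here among the 14 measured skeletal muscle markers. It was the 1 gene of that list called in a phase, lower late. The part of these markers in the lower signals of Kcna2, Kcng4, Kcns1 and the Kv1 partners was not tested. With the pan-neuronal marker level of each array as a covariate, all 39 called values of members in the phase and late minus early comparisons kept their calls, as they did with the skeletal muscle marker level. The pan-neuronal level overlapped between phases (11.97 to 12.11 on naive, 11.89 to 12.32 on late arrays), so it could take away little of a phase difference. Large-fibre, nociceptor and macrophage levels were not used as covariates.

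Upstream sequences are shown for the promoters of a few called members, since the members were read as transcripts and these windows hold the letters beside their starts. RefSeq's table for GRCm38.p6 held 62 of the 80 members (42 of the 54 measured). Kcnk6 and Kcna1 are not in it. Shown are Kcng4 and Kcnip3, the F-test members of lowest p whose listed start is the outer end of the annotated gene, and Kcnmb4, the higher member in the table. Each window is the 250 bases before the listed start, 5′ to 3′ on the gene's strand. That of Kcnmb4 lies wholly inside the annotated gene, and the listed start of Kcnmb4 is 336 bases from the gene's outer end. Capitals mark the motifs searched on both strands, AP-1 (TGANTCA), CRE (TGACGTCA), TATA box (TATAAA) and GC box (GGGCGG), where they occur.
Kcng4, chr8:119635681-119635930, minus strand: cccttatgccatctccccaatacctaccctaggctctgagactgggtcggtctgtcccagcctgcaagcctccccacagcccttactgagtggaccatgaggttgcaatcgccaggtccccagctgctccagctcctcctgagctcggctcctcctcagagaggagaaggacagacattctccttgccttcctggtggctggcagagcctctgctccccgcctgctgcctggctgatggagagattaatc
Kcnip3, chr2:127522095-127522344, minus strand: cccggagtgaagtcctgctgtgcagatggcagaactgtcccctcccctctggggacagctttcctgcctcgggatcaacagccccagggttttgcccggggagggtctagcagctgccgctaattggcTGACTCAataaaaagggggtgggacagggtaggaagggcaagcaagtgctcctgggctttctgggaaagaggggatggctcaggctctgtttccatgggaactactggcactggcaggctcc
Kcnmb4, chr10:116473524-116473773, minus strand: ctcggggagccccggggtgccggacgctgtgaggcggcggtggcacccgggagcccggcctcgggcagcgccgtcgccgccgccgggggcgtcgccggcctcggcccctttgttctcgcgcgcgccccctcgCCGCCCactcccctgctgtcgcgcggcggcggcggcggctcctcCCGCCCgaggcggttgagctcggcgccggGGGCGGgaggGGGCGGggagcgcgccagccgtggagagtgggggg

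The Kcnmb4 window is 83.6% G and C, with 43 CpG dinucleotides and 4 GC boxes. The Kcng4 window is 60.4% G and C with 4 CpG and none of the motifs. The Kcnip3 window has 4 CpG and 1 AP-1 motif. Of the 13 members in the table called lower in the F-test or a phase, 1 held an AP-1 motif (7.69%), 0 a CRE, 0 a TATA box and 7 a GC box (53.85%). Of all 27025 promoters 6.87% held AP-1, 1.62% CRE, 12.97% a TATA box and 32.94% a GC box. Of the 28 members measured and not called in the F-test or a phase, 14 held a GC box. These 28 include Kcnf1 and Kcnh2, which were called late minus early. A match to these letters is a description of the window.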

How the data were processed

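Arrays of mouse dorsal root ganglia (40) were grouped by the labels' time after injury. Per the labels, cRNA was labelled with biotin. Per the file headers, the deposited table has for each probe and array an intensity and a detection p-value. The log2 values in the authors' second deposited table lie within 0.038 of log2 intensities after quantile normalization alone, and the authors' software is not given in the sources used here. The deposited detection p-values of 37 arrays do not follow the intensities of those arrays, so the detection level is the mean over the other 3 (6.82 to 6.88). The detection column of 10 days replicate 2 carries a 9-day name, and its label was followed.

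Background was removed by normexp with an offset of 50, which shrinks differences of dim probes, and arrays were quantile-normalized before log2 was taken. The filter on dim probes (3 arrays) kept 15462, and a gene is read by its brightest kept probe (10519 genes; 8 members had several). Symbols are those of the platform annotation, given for 23978 probes, with 1719 unnamed. Genes were fitted with limma 3.58.1 (R 4.3.3), a mean for each group, moderated variances with a trend. The code was tested on simulated data. Plots used matplotlib 3.10.9.

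Named genes are members called in the F-test, a phase or between phases, the member of lowest F-test p in each other subfamily, a set of members of known interest, and called partners with at most 4 others. The members and lists were chosen with earlier results of these data known, so the counts are no independent support for a pattern seen before. Alternatives covered background correction (neqc, which uses those mismatched detection columns, offset 16, the deposited log2 values), cyclic loess, dim-probe filters, the mean of probes, robust variances, the arrays in the fit, replicate and sample-number blocks, marker levels as covariates and leaving out each array. Leaving out the 5 arrays with a skeletal muscle marker level above 9 was chosen after seeing the data.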

Additional observations from a re-analysis of the deposited data

Results flagged for a closer look

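Among the 7 naive arrays, the lone low or high value of 3 of the 54 measured potassium channel genes stood far from the other 6. Chance flags about 1 in 20 such groups. Kcna6, a Kv1 pore gene, read 7.57 on naive 4 against 7.91 on the nearest array. Kcnab3, a Kv1 beta subunit gene, read 6.34 on naive 2, and both this and the nearest array (6.64) were below the detection level. Kcnk3, the TASK-1 leak channel gene, read 7.21 on naive 3 against 7.36. None of the 3 genes was called in any comparison.

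The late and early differences from naive differed, by the test of the difference itself, in 10 members. Kcng4 gave -0.47, Kcnip1 -0.45, Kcns1 -0.43, Kcnk1 -0.39 and Kcna2 -0.38. Kcnk18 gave -0.33, Kcnh2 -0.27, Kcnf1 -0.25 and Kcnip3 -0.21, while Kcnk6 gave 0.34. The naive arrays cancel in this difference.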

How the results depend on the processing

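None of the 39 called values of members in the phase and late minus early comparisons changed direction under an alternative. Directions of single-time calls and of partner genes were not followed. Of 543 values of called members under other settings, 503 kept their call and 40 lost it, and of 1560 with 1 array left out, 1484 kept it and 76 lost it. With array weights and robust variances the F-test called 26 members (9 as reported), single times 94 (49) and the middle phase 21 (13). With the pan-neuronal level as a covariate single times gave 77 calls and late minus middle gave 2 (0). Without the 5 arrays of high muscle marker level late minus early gave 5 calls (10). The cause of these changes was not tested. With neqc, which rests on the mismatched detection columns, 22 of 39 called values were over 1.5 times closer to 0, and 1 call was lost (Kcnh2 late minus early, adjusted p = 0.71). Leaving out 1 array gave 8 to 11 F-test calls, 42 to 52 at single times, 0 early, 9 to 15 in the middle phase, 12 to 18 late, 7 to 11 late minus early and 0 late minus middle.

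The replicate numbers did not pair the arrays, since deviations of same-numbered arrays had a median correlation of -0.02 over 201 pairs and 7 of 40 arrays correlated best with their own number. With the replicate number as a block the F-test called 7 members, single times 30, the middle phase 6, the late phase 8, late minus early 9, and early and late minus middle 0. Of the 39 called values 16 lost their call under the block. Kcnc1, Kcnip1, Kcns1 and Kcnu1 lost it in both phases, and Kcnh7, Kcnip2 and Kcnk6 in the middle phase. Kcnc4, Kcne1l, Kcnmb4 and Kcnv1 lost it late, and Kcnf1 late minus early. Replicate numbers above 3 exist on naive arrays alone, so the block takes those naive arrays out of the comparisons with naive. How much of the loss came from this was not tested. The filter of 10 arrays left 36 of the 39 called values, and the fit on the compared groups alone gives no F-test. The values it removed are those of Kcnh7 and Kcnh5. Signal over background limits the reading of dim genes, since 26 of 80 members did not pass the detection level on 3 arrays.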
